A study of Mus musculus with 2 samples.

Results

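The 7 genes described here are Bdh1, Acat1, Aacs, Slc16a1, Pdk4, Vnn1 and Ucp2, which were picked by name as genes of ketone body metabolism and of the hepatic fasting response. Of the 8551 genes in the deposited table, 5 are members of this set, namely Bdh1, Acat1, Aacs, Pdk4 and Vnn1, while Slc16a1 and Ucp2 were not analysed here. Liver gene expression was profiled by tag sequencing in male wild type mice, called normal, and in male db/db mice, called diabetic, both 9 weeks old and on a C57BL/6 background. The db/db mouse carries a defective leptin receptor in every tissue and becomes obese and hyperglycemic. All mice ate chow freely and were killed about 3 h after lights on, so neither group was fasted by design. Each group is 1 library, it is not stated in the sources whether livers of several mice were pooled, and no difference below has a replicate check. The methods name a pair of suppliers without saying which mice came from which, so genotype and supplier cannot be told apart.

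During fasting the liver takes up fatty acids, oxidises them to acetyl-CoA and turns part of it into the ketone bodies acetoacetate and beta-hydroxybutyrate, which other tissues burn. Mitochondrial ketogenesis begins with acetoacetyl-CoA thiolase (Acat1) and ends with beta-hydroxybutyrate dehydrogenase (Bdh1). The nuclear receptor PPARalpha (Ppara) is activated by fatty acids and switches on many of the genes for this response, and Pdk4, Vnn1 and Ucp2 are well known among its targets.

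In this method a transcript is counted through a short tag that begins at a GATC site, the site cut by DpnII. The tag expected from the last GATC site of the longest coding transcript in GENCODE M21 (build GRCm38) is shown for each member, because the values below are counts of such tags. The tag sequences counted by the authors themselves are not part of the deposited table. Capitals mark the cut site and the following 16 bases are in lower case, 5′ to 3′ on the transcript strand.
Bdh1: GATCctacactcctggcagt
Acat1: GATCcaaaaaacttgtggtg
Aacs: GATCttaagtctataaagga
Slc16a1: GATCaggaacgtgtccagtc
Pdk4: GATCacacaaaactgtcagc
Vnn1: GATCtcctcagaagaaatca
Ucp2: GATCtacctgcatctgcctc

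All 7 tags lie in the 3′ UTR within the last exon, and none of them occurs in a transcript of another annotated gene (0 other genes for each). In GRCm38 the tag of Acat1 is at chr9:53580817-53580836 on the minus strand and that of Vnn1 at chr10:23905167-23905186 on the plus strand. The tag of Pdk4 is at chr6:5483724-5483743 on the minus strand, that of Bdh1 at chr16:31458519-31458538 and that of Aacs at chr5:125517335-125517354, both on the plus strand. Slc16a1 and Ucp2 also carry usable sites, with 9 and 11 GATC sites in their longest transcripts and tags at chr3:104658227-104658246 and chr7:100501951-100501970. Bdh1 has 4 coding transcripts with 4 distinct last tags and Pdk4 has 2 coding transcripts with 2, so for these genes the sum over tags depends on which transcripts were searched. Acat1, Aacs and Vnn1 have 1 coding transcript each.

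The deposited values are tags of a gene normalised to the clean tags of its library (TPM), and they rise in steps that equal 1 read, 0.0973 TPM in the normal and 0.0740 TPM in the diabetic library. These steps correspond to 10278531 and 13508232 clean tags. Levels are given with 95% Poisson intervals and differences as log2(diabetic/normal) with 95% Clopper-Pearson intervals, and both cover counting error only. Following the study's definition, a gene was called when it differed at least 1.5-fold with a false discovery rate (FDR) under 0.001, here from an exact binomial test that compares the 2 libraries and not the conditions. Over all listed genes the median log2 ratio was 0.25. Scaling the libraries to each other in 4 other ways lowered every log2 ratio by 0.25 to 0.31, so ratios near 0.25 have no firm direction. Of all listed genes 2941 were at least 1.5-fold higher and 1310 at least 1.5-fold lower as deposited, against 2054 and 2022 with TMM scaling.

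Of the 5 members with values, 3 were at least 1.5-fold higher in the diabetic library (Acat1, Vnn1 and Pdk4), against 34.4% of all listed genes. Both criteria were met by 2 of them, Acat1 and Vnn1, against 22.9% of all listed genes. None (0) was at least 1.5-fold lower, against 15.3% of all listed genes by fold and 8.19% by both criteria. Bdh1 and Aacs lay within 1.5-fold, close to the middle of all genes. The median log2 ratio of the 5 genes was 1.01. With 5 genes this is a description of the set and carries no test.

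**Figure D1:**
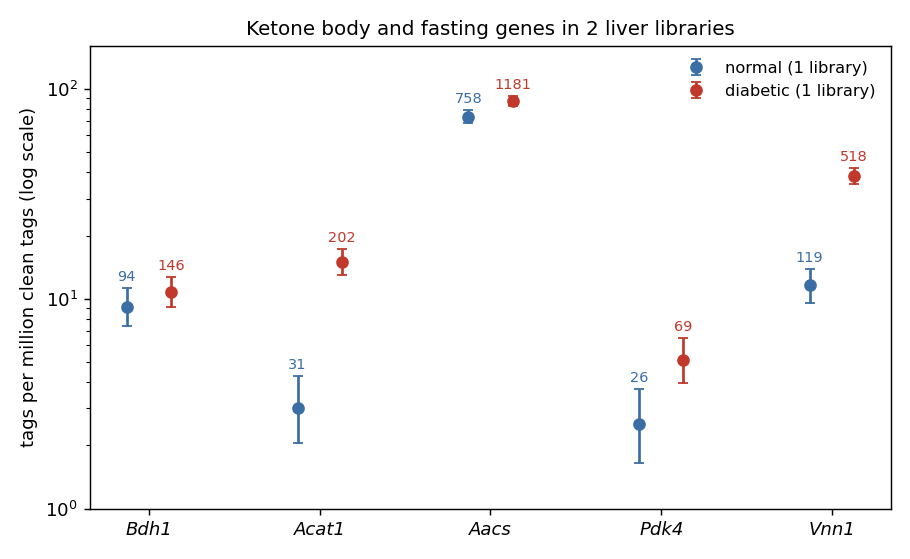
Level of each member in the normal and the diabetic library, in TPM on a log axis, in blue for the normal and red for the diabetic library, with 95% Poisson intervals and the read count above each point. The intervals of the 2 libraries are well apart for Acat1 (31 and 202 reads) and Vnn1 (119 and 518 reads), narrowly apart for Pdk4 and Aacs, and overlap for Bdh1.

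Among the ketogenic enzymes Acat1 was higher in the diabetic library, while no difference of Bdh1 was resolved at this depth. Acat1 (Entrez 110446) condenses 2 acetyl-CoA to acetoacetyl-CoA and also acts in the last step of isoleucine breakdown. It was at 3.02 TPM in the normal library (interval 2.05 to 4.28) and at 14.95 TPM in the diabetic library (12.96 to 17.2). The levels do not overlap within counting error, and the normal value rests on only 31 reads. Acat1 was 4.95-fold higher (log2 ratio 2.31, 1.76 to 2.90), and its FDR by the exact test was 9.4e-22. It ranked 237th from the top of 8551 genes.

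Bdh1 (Entrez 71911), the mitochondrial enzyme that reduces acetoacetate to beta-hydroxybutyrate, was at 9.15 TPM in the normal library (7.39 to 11.2) and at 10.81 TPM in the diabetic library (9.13 to 12.7), from 94 and 146 reads. The intervals of the levels overlap. The ratio stood at 0.24 on the log2 scale (-0.14 to 0.63) at rank 4328, with an FDR of 0.295 by the exact test, and it lay below 0 under each of the 4 other scalings. As deposited, a difference of 1.5-fold upward lies inside this interval, so at this depth a moderate increase of Bdh1 could not be told from none. The other scalings lower the interval by 0.25 to 0.31, and 1.5-fold upward then lies outside it.

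Bdh2, a cytosolic dehydrogenase named for the same reaction as Bdh1, was at 12.94 and 24.73 TPM, a log2 ratio of 0.93 (0.64 to 1.24). It met both criteria, as Acat1 did.

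The difference between the log2 ratios of 2 genes does not depend on how the libraries are scaled, and 8 such pairs were compared, chosen after the values were seen and given with no test. The log2 ratio of Bdh1 was lower than that of Acat1 by 2.07 (difference -2.07, interval -2.78 to -1.38). Against Bdh2 the difference was -0.69 (-1.18 to -0.20). These intervals cover counting error only. Bdh1 and Acat1 are the lowest and the highest member, so a difference in that pair was fixed by the choice.

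Aacs (Entrez 78894) encodes cytosolic acetoacetyl-CoA synthetase, which returns acetoacetate to the acetyl-CoA pool used for lipid and sterol synthesis. It had 758 reads in the normal library (73.75 TPM, interval 68.6 to 79.2) and 1181 in the diabetic library (87.43 TPM, 82.5 to 92.6). The intervals of the levels do not touch, yet the difference was 1.19-fold (log2 ratio 0.25, 0.11 to 0.38) at rank 4307, with an FDR of 0.00067 by the exact test. It was close to the median of all genes, and under the 4 other scalings it lay between -0.0605 and -0.00678.

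The other genes listed with Aacs also make or use acetoacetyl-CoA. Among them Acat2, the cytosolic thiolase, was at 62.1 and 121.6 TPM with a log2 ratio of 0.97 (0.84 to 1.10). Acat2 has a close paralog, Acat3, and tags shared by such copies may have been split between them or left out, which was not checked. Oxct1, the enzyme by which extrahepatic tissues activate acetoacetate and which hepatocytes largely lack, had 21 reads in each library, a log2 ratio of -0.40 (-1.34 to 0.55). Of these 3 genes with values, 1 met both criteria as higher, against 22.9% of all listed genes. The log2 ratio of Aacs was lower than that of Acat2 (difference -0.73, -0.91 to -0.54), and its difference from Oxct1 was not resolved (0.64, -0.32 to 1.59). The log2 ratio of Acat1 exceeded that of Acat2 by 1.34 (0.77 to 1.95).

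Ketone bodies, lactate and pyruvate cross membranes through monocarboxylate transporters, of which Slc16a1 (MCT1) was not analysed here. Among the 4 genes of this list with values, 2 were higher and 1 was lower by both criteria. The shares over all listed genes were 22.9% higher and 8.19% lower. Bsg, basigin, the chaperone that carries MCT1 to the cell surface, was at 139.7 and 434.8 TPM, a log2 ratio of 1.64 (1.55 to 1.72). Slc16a7 (MCT2) was at 77.4 and 147.5 TPM, a log2 ratio of 0.93 (0.81 to 1.05). Slc16a6, a transporter linked to hepatic ketone body export, went the other way, from 81 reads to 36, with a log2 ratio of -1.56 (-2.17 to -0.98). Slc16a11 was at 47.4 and 49.8 TPM with a log2 ratio of 0.07 (-0.10 to 0.24), and under the other scalings its sign was negative.

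Pdk4 (Entrez 27273) encodes a kinase that inhibits the pyruvate dehydrogenase complex and thereby spares pyruvate when fatty acids are burned. It had the fewest reads of the members, 26 in the normal library (2.53 TPM, interval 1.65 to 3.71) and 69 in the diabetic library (5.11 TPM, 3.97 to 6.46). As deposited, the 2 intervals are separated by a narrow gap. Pdk4 was 2.02-fold higher, with a log2 ratio of 1.01 (0.34 to 1.72), but with an exact test FDR of 0.0042 it missed the study's criterion. Its interval spans differences from below 1.5-fold to above 3-fold.

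The other kinases of the complex with values were higher as well. Pdk1 was at 8.95 and 21.32 TPM, a log2 ratio of 1.25 (0.91 to 1.61), and Pdk2 at 23.16 and 42.05 TPM, a log2 ratio of 0.86 (0.64 to 1.09). Both met both criteria, Pdk2 not under median-ratio scaling. The log2 ratio of Pdk4 differed from that of Pdk2 by 0.15 (-0.56 to 0.90) and from that of Pdk1 by -0.24 (-1.004 to 0.56), so neither difference was resolved at 26 and 69 reads.

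Subunits of the complex that these kinases act on were also measured. Pdha1, the E1 alpha subunit that is phosphorylated, had a log2 ratio of 0.93 (0.74 to 1.12) and Dld, the E3 subunit, also 0.93 (0.75 to 1.11). Dlat, the E2 subunit, had 23 and 55 reads and a log2 ratio of 0.86 (0.14 to 1.63), with an exact test FDR of 0.030 that missed the criterion. Pdhx, the E3-binding protein, had 98 and 99 reads and a log2 ratio of -0.38 (-0.80 to 0.04). Of the 7 genes of the complex and its regulators with values, Pdk4 among them, 4 met both criteria as higher, against 22.9% of all listed genes. By the same criteria 0 were lower, against 8.19% of all listed genes, and the median log2 ratio of the 7 was 0.93.

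Vnn1 (Entrez 22361), vanin 1, is a membrane-anchored pantetheinase that releases the vitamin pantothenate and cysteamine from pantetheine. It was at 11.58 TPM in the normal library (119 reads, interval 9.59 to 13.9) and at 38.35 TPM in the diabetic library (518 reads, 35.1 to 41.8), and the levels do not overlap. Vnn1 was 3.31-fold higher (log2 ratio 1.73, 1.44 to 2.03), its FDR by the exact test was 4.8e-38, and it ranked 474th, with 94.5% of listed genes below it. It was the member with the most reads behind a call.

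Vnn3, the neighbouring pantetheinase of the same family, was nearly equal in the libraries at 32.20 and 32.65 TPM, a log2 ratio of 0.02 (-0.19 to 0.23) that turned negative under the other scalings. The log2 ratios of Vnn1 and Vnn3 differed by 1.71 (1.35 to 2.07), a 3.27-fold difference in proportion. Among the enzymes that rebuild coenzyme A from pantothenate, Pank2 had a log2 ratio of 1.14 (0.75 to 1.55), Ppcs of 1.49 (1.26 to 1.72) and Coasy of 0.75 (0.65 to 0.84), which was within 1.5-fold under the 4 other scalings. Slc5a6, the transporter that takes up pantothenate and biotin, had 13 and 58 reads and a log2 ratio of 1.77 (0.88 to 2.76), and it lost its call under median-ratio scaling. With Vnn1, these were the 5 of 10 genes of this list that met both criteria as higher, against 22.9% of all listed genes, and 0 were lower. The remaining 5, with Vnn3 and other enzymes of coenzyme A synthesis among them, lay within 1.5-fold. The median of the list was 0.64.

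**Figure D2:**
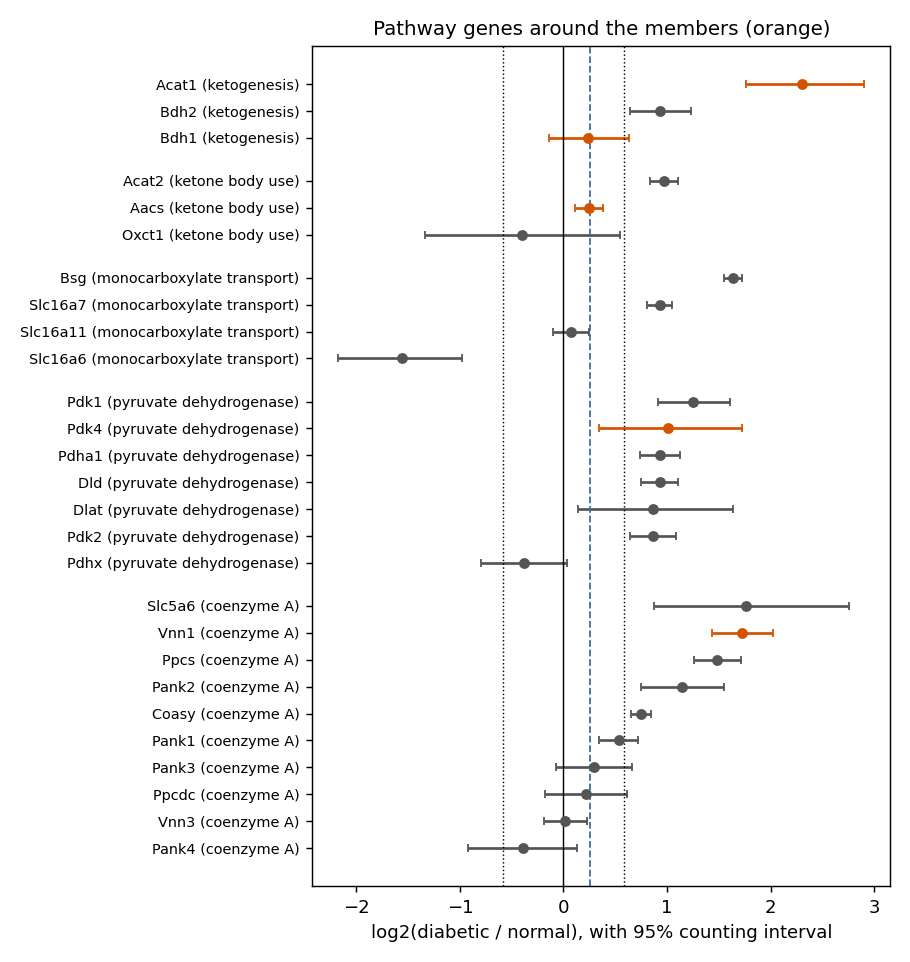
Log2(diabetic/normal) with 95% counting intervals for the members (orange) and the other genes reported from their pathway lists (gray), grouped by list; the solid line is at 0, the dotted lines at 1.5-fold, and the dashed blue line at the median of all listed genes, 0.25. Acat1 and Vnn1 stand at 2.31 and 1.73, Pdk4 at 1.01 beside Pdk1 and Pdk2, and Bdh1 and Aacs on the dashed line.

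Ucp2, a mitochondrial carrier of the uncoupling protein family, was not analysed here. The 2 genes of the family with values were scarce. Slc25a14 had 12 and 15 reads and a log2 ratio of -0.08 (-1.27 to 1.15). Slc25a27 had 8 and 18 reads and a log2 ratio of 0.77 (-0.50 to 2.19), past 1.5-fold but with an FDR of 0.319 by the exact test. Neither met both criteria, and the intervals allow a difference of more than 2-fold for each.

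The receptor itself was higher. Ppara was at 36.58 TPM in normal and 82.10 TPM in diabetic liver, 2.24-fold apart (log2 ratio 1.17). Pparg, the adipogenic relative of Ppara, had 78 and 699 reads and the highest ratio of this list, 2.77 (2.43 to 3.13), whereas Ppard, with 139 and 75 reads, was lower at -1.28 (-1.71 to -0.87). Med1, a coactivator subunit of Mediator, had 32 and 184 reads and a log2 ratio of 2.13 (1.58 to 2.72). Creb3l3, a fasting-responsive liver transcription factor, was at 0.76 (0.59 to 0.94) and Hdac3, a corepressor deacetylase, at 0.63 (0.46 to 0.81), and under the 4 other scalings these last 2 were within 1.5-fold. In all 5 of the 10 receptors and partners with values met both criteria as higher, against 22.9% of all listed genes. By the same criteria 1 was lower, against 8.19% of all listed genes, and the median log2 ratio of the 10 was 0.42.

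Of 39 other genes that are textbook PPARalpha targets, 28 had values, among them Creb3l3. At least 1.5-fold higher were 24 of the 28, where 34.4% of all listed genes were. Both criteria were met by 23, where 22.9% of all listed genes met them, and 0 were lower by either. The list was written with earlier results of these data known, so these counts are a description and carry no test. Acot2 (0.49 and 10.51 TPM) and Pex11a (0.97 and 4.89 TPM) reached the mean of 1 TPM required for listing only through the diabetic library. These 2 genes could therefore appear only as higher. Under the 4 other scalings 17 or 18 of the 28 were at least 1.5-fold higher, against 21.9% to 24.0% of all listed genes. As deposited, 17 of the 28 were at least 2-fold higher, against 18.6% of all listed genes. The median log2 ratio of the 28 was 1.41 against 0.25 over all genes, and between 1.10 and 1.16 under the 4 other scalings. Among those with more than 3 reads in both libraries, the highest ratios were those of Cyp4a14, a fatty acid omega-hydroxylase (5.72, 5.48 to 5.96), and of the acyl-CoA thioesterases Acot2 (4.42, 3.18 to 6.08, from 5 and 142 reads) and Acot3 (4.16, 3.34 to 5.14, from 12 and 283 reads). The lowest were those of the fatty acid transporter Slc27a1 (-0.04, -0.84 to 0.78, from 25 and 32 reads), the acyl-CoA synthetase Acsl1 (0.23, 0.12 to 0.34) and the monoacylglycerol lipase Mgll (0.42, 0.31 to 0.53). The ratios of Vnn1 and Acat1 lay above the median of these targets and those of Pdk4, Aacs and Bdh1 below it.

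**Figure D3:**
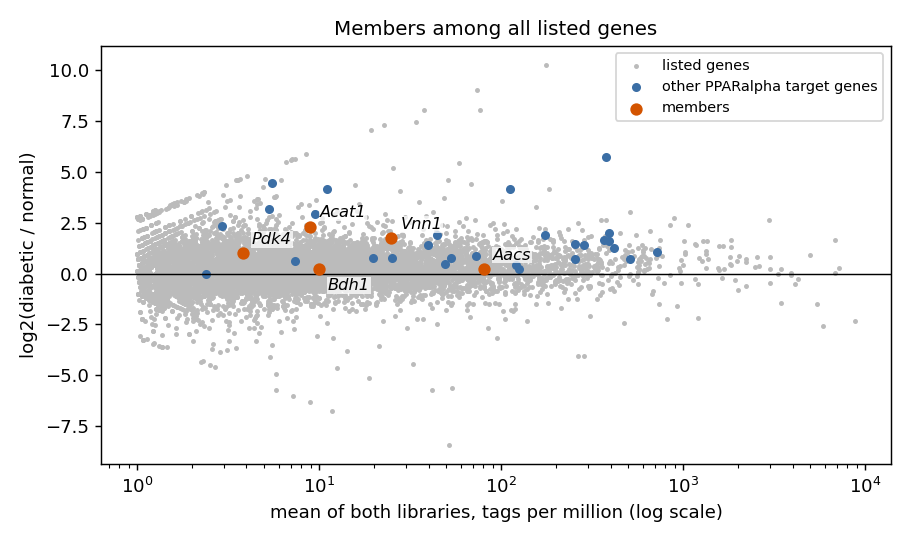
Log2(diabetic/normal) of all 8551 listed genes (gray) against their mean level in TPM on a log axis, with the 28 other PPARalpha target genes in blue and the 5 members in orange. Acat1 (rank 237) and Vnn1 (rank 474) lie above most genes, and Bdh1 and Aacs lie in its middle.

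With 2 libraries the pattern of a gene is a single log2 ratio, and likeness to it is shared by many genes. Among 61 other genes of the pathway lists, those nearest to Acat1, the highest member, were Pex11a, a peroxisome proliferation factor, at 2.33 and Med1 at 2.13. Nearest to Bdh1, the lowest member, were Acsl1 at 0.23 and Ppcdc, an enzyme of coenzyme A synthesis, at 0.22. Of all listed genes 51 lay within 0.1 of the ratio of Acat1 and 847 within 0.1 of that of Bdh1.

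RefSeq promoters (GRCm38.p6, 250 bases before to 50 after the start) were at hand for Aacs, Bdh1 (2 starts), Pdk4, Slc16a1 and Ucp2. Those of Acat1 and Vnn1, the members that met both criteria, were not at hand and were not searched. A PPAR response element is a direct repeat of AGGTCA spaced by 1 base. With up to 1 mismatch in each AGGTCA and both strands searched, it was found in 0 of these windows and in 2.40% of 32851 promoters. A single AGGTCA, which overlaps the exact form of that repeat, was in none of the windows and in 16.3% of all promoters, and TGACGTCA (1.79% of all) and TATAAA (13.6%) were absent as well. The window of Aacs held the FOXO motif GTAAACA (3.65% of all), that of Pdk4 held CCAAT (37.4%), and GGGCGG (35.7%) was in those of Slc16a1 and Ucp2 and in 1 of those of Bdh1. These are matches of letters near the start only.

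Some markers of cell types moved with the comparison. In bulk liver, fewer cells of a type and less RNA per cell cannot be told apart. By both criteria, 8.19% of all listed genes were lower and 22.9% higher. Albumin (Alb), the defining hepatocyte product, was at 6801 and 6912 TPM. Of the 7 hepatocyte markers with values 3 were lower (Apoa1, Apob and Fgb) and Cps1 was higher by both criteria, with a median log2 ratio of -0.10. Their sum went from 29090 to 15883 TPM, mostly through Apoa1 (14668 and 2875 TPM), and that of the 6 others from 14422 to 13008 TPM. Of 10 Kupffer cell and macrophage markers, 4 were lower and 1 higher by both criteria, with a median log2 ratio of -0.71. The higher one was C1qb (38.1 and 57.8 TPM), and Cd5l was nearly equal (64.7 and 62.9 TPM). The sum of the 10 went from 333 to 199 TPM, mostly through C1qa (176.5 and 50.7 TPM), and that of the 9 others from 156.8 to 147.8 TPM. Of 10 endothelial markers, 3 were lower and 1 higher by both criteria, and their sum went from 158 to 133 TPM. Of 7 adipocyte markers 3 had values, and Adipoq, Plin1, Lep and Retn were not analysed here. Cidea rose from 0 reads, set to the floor of 3 reads (0.292 TPM) for its ratio, to 95 reads and Cfd from 5 to 160. Both reached the mean of 1 TPM required for listing only through the diabetic library, so they could appear only as higher. Lipe had 90 and 132 reads (8.76 and 9.77 TPM) and lay within 1.5-fold. The sum of the 3 went from 9.26 to 28.64 TPM, mostly through Cfd and Cidea, so its rise has the same limit. Skeletal muscle markers (0 of 7 with values) were not analysed here. The part of these differences in the ratios of the members was not tested.

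**Figure D4:**
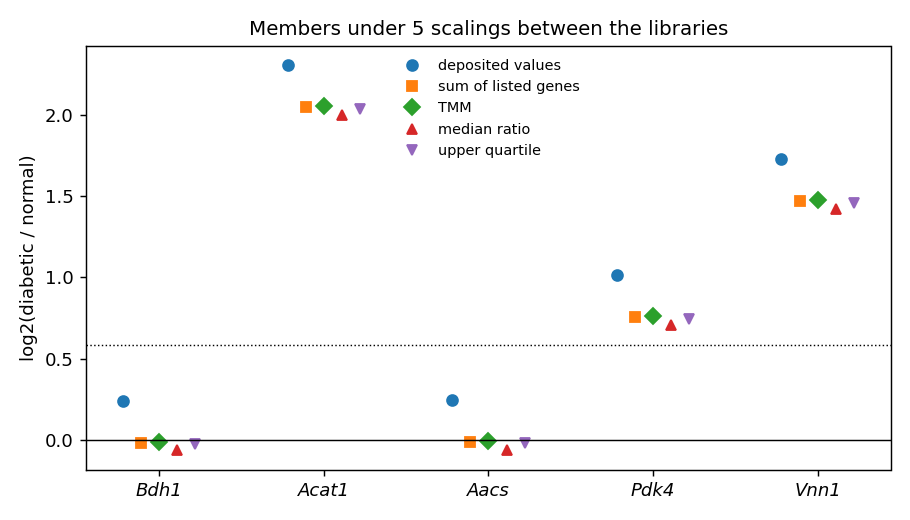
Log2(diabetic/normal) of the 5 members under the deposited values and 4 other scalings between the libraries; the solid line is at 0 and the dotted line at 1.5-fold. The ratios of Acat1, Vnn1 and Pdk4 stayed above the dotted line in each scaling, but Pdk4 missed the FDR criterion in each. Bdh1 and Aacs moved from 0.24 and 0.25 to between -0.0655 and -0.00678.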

How the data were processed

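Liver poly(A) RNA of 1 normal and 1 diabetic library was cut with DpnII at the cDNA stage and its tags were sequenced. The authors compared clean tags with RefSeq and deposited RPM (headed TPM) rounded to 2 decimals, with 0.01 for no tag and no gene under a mean of 1. The notes name mm9, and the aligner is not given in the sources used here. The number of other per-sample columns was 0. Reads were derived from the step size in each library (whole within 0.1 of a read or the rounding step for 8513 of 8513 and 8536 of 8537 values). An exact binomial test per gene, two-sided, was adjusted by Benjamini-Hochberg over 8551 genes, and it was checked on simulated data. A gene at 3 reads or fewer in a library would be set to 3 reads. Members, gene lists and pairs were chosen with earlier results of these data known. Named were all members, the genes of the lists that hold a member (all where at most 6 others had values, otherwise those past both criteria and the nearest paralog), partners of PPARalpha past both criteria, the 3 highest and 3 lowest targets with more than 3 reads in both libraries, and the 2 nearest genes to the highest and the lowest member. Some genes of these pathways are not reported here. Genes were matched by Entrez identifier (8317 of 8551 in RefSeq, GRCm38.p6). Alternatives were 4 scalings, pseudocounts of 0.1 and 1 TPM, a mean of at least 5 TPM and a fold threshold of 2. The tools were scipy 1.17.1, numpy 2.4.6 and pandas 2.3.3 under Python 3.11.15, with figures by matplotlib 3.10.9.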

Additional observations from a re-analysis of the deposited data

How the results depend on the processing

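The numbers of members called higher and lower stayed within 1.5 times of those reported under all 8 alternatives. Pdk4 is left out by a mean of at least 5 TPM, which leaves 2 members at least 1.5-fold higher. Acat1 and Vnn1 met both criteria under each alternative, and Pdk4 under none that kept it. The median log2 ratio of the PPARalpha targets was 1.15 when scaled to the sum of listed genes, 1.16 with TMM, 1.10 with the median ratio and 1.14 with the upper quartile. Under these scalings, in that order, the log2 ratio changed sign to -0.0189, -0.0117, -0.0655 and -0.0277 for Bdh1, -0.0140, -0.00678, -0.0605 and -0.0228 for Aacs, -0.19, -0.18, -0.23 and -0.20 for Slc16a11, -0.24, -0.23, -0.29 and -0.25 for Vnn3, -0.0301, -0.0230, -0.0767 and -0.0389 for Acsl1, and -0.0419, -0.0348, -0.0885 and -0.0507 for Ppcdc. This follows from the construction, since each scaling subtracts 1 value from every ratio. Of 304 values of 39 named genes under the alternatives, 257 kept their direction and call, 23 lost the call and 24 changed sign. Over all genes, those at least 1.5-fold higher numbered 2941 as deposited, 2028, 2054, 1873 and 1997 under the scalings in the same order, 1773 of 5309 at a mean of at least 5 TPM and 1589 at a fold of 2. Those lower numbered 1310, then 2044, 2022, 2189 and 2076, and 658 and 582. With both criteria the numbers were 1955 higher and 700 lower as deposited, 1249 and 1165, 1272 and 1147, 1133 and 1262, and 1220 and 1183 under the scalings, and 1236 and 387 at a fold of 2. No replicate could be left out and no paired analysis was possible because each group is 1 library. Counts of 26 and 31 reads for Pdk4 and Acat1 in the normal library limit their precision.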
